A study of Mus musculus with 2 samples.

Results

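Neutrophils of CT26 tumors were taken as the single-cell barcodes that were high in *S100a8* and *S100a9* and lacked macrophage and T cell transcripts, and they numbered 540 of 13939 barcodes kept. The rule asked for mitochondrial transcripts under 20% of the molecules, *S100a8* plus *S100a9* at 200 or more per 10000 molecules, no *Csf1r*, at most 1 molecule of *C1qa*, *C1qb* and *C1qc* together, and none of *Cd3d*, *Cd3e* or *Cd3g*. Molecules are counted as unique molecular identifiers (UMIs), a tag given to each captured transcript. The untreated (UT) library held 272 of these neutrophils among 7163 barcodes and the BUP-treated library 268 among 6776.

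Neutrophils are short-lived granulocytes that leave the bone marrow mature and reach inflamed tissue and tumors through the receptor CXCR2, drawn by the ligands CXCL1, CXCL2 and CXCL3. They store proteases and antimicrobial proteins in granules made in sequence during maturation, kill microbes with an NADPH oxidase, and release cytokines such as IL-1β. S100A8 and S100A9 form calprotectin, one of the most abundant proteins of the neutrophil cytosol. In tumors, neutrophils and the related myeloid-derived suppressor cells are known both for killing tumor cells and for restraining T cells.

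CT26 is a mouse colon carcinoma line, implanted here under the skin of the left flank of male BALB/c mice aged 6 to 8 weeks. The UT mice received no treatment, and the BUP-treated mice received 1 BUP-Gel, a hydrogel carrying 40 mg/kg of bupivacaine (BUP), a local anesthetic that blocks voltage-gated sodium channels and was used to lower acetylcholine release from tumor nerves. Cells of 3 tumors were pooled in each condition, sorted as live CD45+ and CD45- cells, mixed at 4 to 1 by the labels and at 3 to 1 by the methods, and run in 1 lane of a droplet chip per condition. Each condition therefore has 1 library, tumors cannot be told apart within it, and UT and BUP-treated tumors could not be compared by a test.

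The libraries held 83228442 UMIs in 7556 UT barcodes and 89918925 UMIs in 7221 BUP barcodes. A neutrophil had a median of 1794 UMIs in the UT library (507 to 10236) and 2030 in the BUP library (545 to 15252), from medians of 743.5 and 768 genes. All neutrophils together held 555035 UT UMIs and 692003 BUP UMIs. A gene's level is given as its UMIs per 1000000 UMIs of all neutrophils of the library (CPM), with an exact 95% Poisson interval in parentheses where it bears on a comparison. Intervals of shares are exact binomial (Clopper-Pearson), those of log2 ratios are exact and conditional on the summed UMIs, and all of them cover counting error only. Of the barcode sequences, 76 occurred in both libraries, and none of these was a neutrophil by the rule.

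Barcodes continued on both sides of the threshold without a gap. Among the barcodes that passed the other parts of the rule, 1769 UT and 3051 BUP barcodes had 10 or fewer *S100a8* and *S100a9* UMIs per 10000. Just outside the threshold, at 150 to 200, lay 17 UT and 9 BUP barcodes, of which 58.8% and 66.7% had a UMI of *Csf3r*, the receptor of the granulocyte growth factor G-CSF. Just inside, at 200 to 250, lay 27 UT and 13 BUP barcodes, of which 77.8% and 92.3% had one. Further out, at 100 to 150, lay 20 UT and 9 BUP barcodes, of which 75% and 66.7% had a *Csf3r* UMI and 30% and 33.3% a *Retnlg* UMI, so the threshold also left out barcodes with these neutrophil transcripts. The medians of the neutrophils were 654 (UT) and 857 (BUP) per 10000. The members were chosen by these values and by the absence of the *Csf1r*, C1q and Cd3 transcripts, which are therefore given only as a description.

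**Figure D1:**
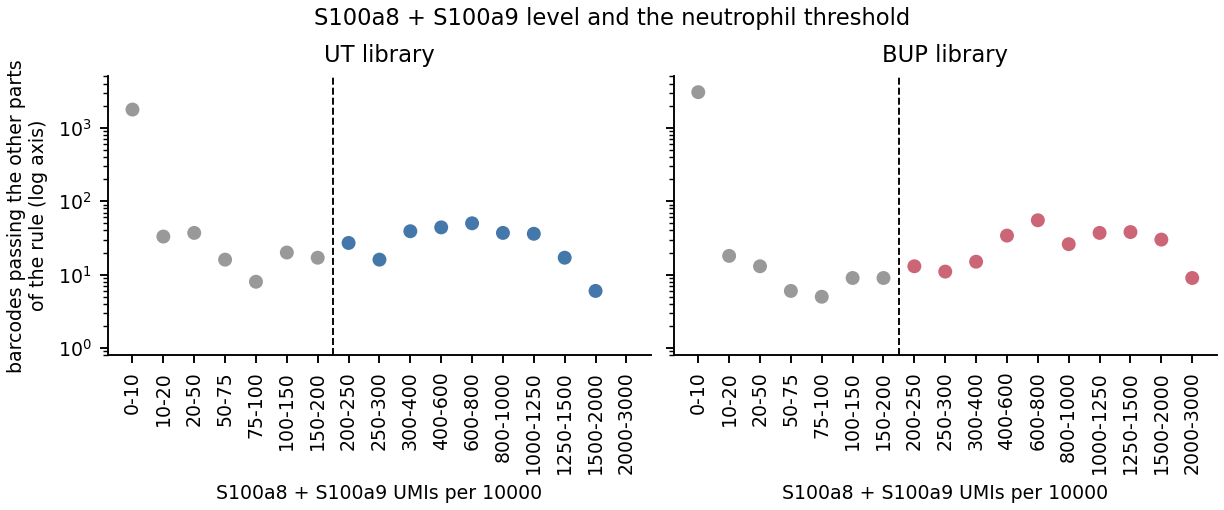
Barcodes that pass the other parts of the rule (vertical axis, log scale) in intervals of *S100a8* plus *S100a9* UMIs per 10000 (horizontal axis), with the threshold of 200 dashed and the neutrophils in color. The lowest interval holds the most barcodes in both libraries, the intervals differ in width, and those just outside the threshold hold 17 UT and 9 BUP barcodes.

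The strict parts of the rule removed about as many calprotectin-rich barcodes as they kept. At the same threshold 546 UT and 511 BUP barcodes were high in *S100a8* and *S100a9*, and 274 and 243 of them were removed. A *Csf1r* UMI was present in 106 UT and 168 BUP barcodes of those removed, more than 1 C1q UMI in 149 and 96, and a Cd3 UMI in 89 and 85. *Csf3r* was detected in 89.1% and 94.2% of the removed barcodes against 83.8% and 85.8% of the neutrophils, so the removed barcodes also carried this neutrophil marker. Their median depth was 2559 UMIs (UT) and 5209 UMIs (BUP), and 187 UT and 121 BUP barcodes among them had at most 1 *Csf1r*, 3 C1q and 1 Cd3 UMI. No doublet caller was run, and the makeup of these barcodes was not tested.

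Transcripts that the rule did not use marked the barcodes as neutrophils. *Retnlg*, which encodes a resistin-like protein of blood neutrophils (ENSMUSG00000022651, chr16:48692547-48694862 on GRCm39), stood at 3589 (3433 to 3750) and 3996 (3848 to 4147) CPM in UT and BUP neutrophils. *Cxcr2* was at 760 and 656 CPM, and *Hdc*, the enzyme that makes histamine, at 2324 and 2301 CPM. In barcodes with a *Csf1r* UMI, no Cd3 UMI and *S100a8* plus *S100a9* below the threshold (2969 UT and 1555 BUP cells, here called *Csf1r* cells after this receptor gene of monocytes and macrophages) these genes were far lower: *Retnlg* by 134-fold and 116-fold, *Cxcr2* by 46.5-fold and 40.1-fold, and *Hdc* by 37.8-fold and 35.0-fold. The decoy receptor gene *Il1r2* (2976 and 3092 CPM), *Csf3r* (1537 and 1483 CPM) and the activating receptor gene *Trem1* (1537 and 1769 CPM) were 12.7-fold to 28.0-fold above the *Csf1r* cells in the 2 libraries.

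The markers differed in how many neutrophils showed them. Cells were thinned to 1000 UMIs each to compare them at equal depth, which left out 43 UT and 32 BUP neutrophils below that depth. *Hdc* was then detected in 80.3% of UT and 83.1% of BUP neutrophils, and *Il1r2* in 81.2% and 81.8%. *Cxcr2* was detected in 52.0% and 53.8% and *Retnlg* in 55.5% and 60.2% (unthinned 59.9% and 66.0%). *Mmp8*, the collagenase of secondary granules, was detected in 14.0% and 13.6%, and *Ly6g*, the surface antigen by which mouse neutrophils are usually sorted, in 6.55% and 5.08%. T cells, taken as the 606 UT and 865 BUP barcodes with at least 2 Cd3 UMIs and no *Csf1r*, should lack these genes. Thinned in the same way, they gave 2.67% and 1.28% for *Retnlg*, 1.84% and 0.813% for *Cxcr2*, and 0.835% and 0.116% for *Ly6g*. Their median depth was 7032.5 UT and 6702 BUP UMIs before thinning, so each of these shares in neutrophils lay above that of the T cells. Free RNA and doublets were not separated in the T cell shares.

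**Figure D2:**
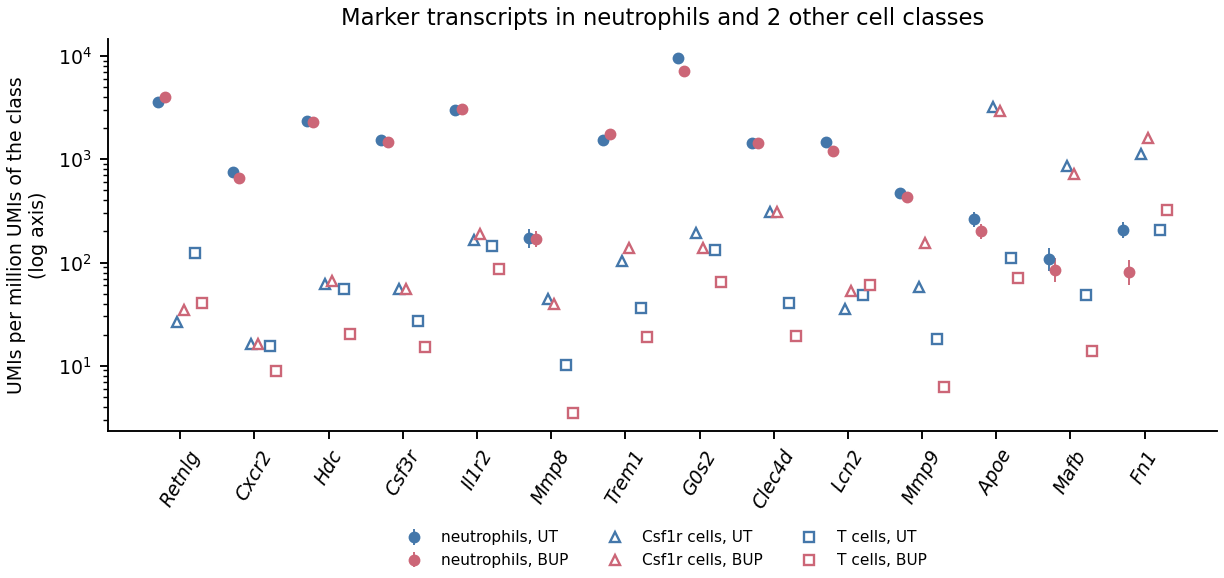
CPM of the class (vertical axis, log scale) for 11 neutrophil genes and 3 macrophage and monocyte genes, in neutrophils (circles, with exact 95% intervals), *Csf1r* cells (triangles) and T cells (squares) of the UT (blue) and BUP (red) libraries. *Retnlg* stands at 3589 and 3996 CPM in neutrophils, above both other classes, while *Apoe* stands at 261 and 202 CPM and is highest in *Csf1r* cells.

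Transcripts of some late granule genes were present and those of early granules nearly absent. Of 5 genes of the primary granules, which are transcribed in promyelocytes, *Elane*, *Ctsg* and *Ms4a3* had no UMI in either library and all 5 summed to 3.60 CPM in UT and 7.23 CPM in BUP neutrophils. Genes of the secondary and tertiary granules were present, at 2614 and 2579 CPM for 11 genes, although *Camp* and *Fcnb* had no UMI. *Lcn2*, which encodes the iron-sequestering protein NGAL, was at 1463 and 1207 CPM, and *Mmp9*, the gelatinase of tertiary granules, at 467 and 435 CPM. *Cxcr4*, a receptor that rises on aged neutrophils, was at 150 (119 to 185) and 104 (81.4 to 131) CPM.

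RNA of other cell types was low but not absent. Of 10 macrophage markers, the 6 that the rule did not use summed to 474 CPM in UT and 321 CPM in BUP neutrophils, with none at 0, against 5528 and 4652 CPM in *Csf1r* cells and 205 and 108 CPM in T cells. The 7 monocyte markers summed to 360 and 246 CPM, against 551 and 502 CPM in T cells. The 4 eosinophil markers summed to 1.80 and 0 CPM, and the 5 mast cell and basophil markers to 28.8 and 4.34 CPM. Markers of dendritic cells (18.0 and 63.6 CPM for 6 genes), NK cells (64.9 and 166 CPM for 5 genes) and erythroid cells (14.4 and 178 CPM for 4 genes) were higher in the BUP neutrophils. In the erythroid list 78 BUP UMIs were those of the globin gene *Hbb-bs*, in 7 cells. The NK cell gene *Gzma* had a log2 ratio of 1.45, which was -2.00 without the 5% of cells with most UMIs. *Siglech*, a gene of plasmacytoid dendritic cells, had 11 and 17 UMIs in single BUP neutrophils and 3 UMIs in a single UT neutrophil.

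How frequent the neutrophils were depended on what they were counted against. Of the barcodes with a UMI of *Ptprc*, which encodes CD45, they made up 208 of 5310 in the UT library, or 3.92% (3.41% to 4.47%), and 210 of 3807 in the other, or 5.52% (4.81% to 6.29%). That is a difference of 1.60 percentage points (0.701 to 2.52). Of all barcodes kept they made up 3.80% and 3.96%, a difference of 0.158 points (-0.493 to 0.811). With up to 1 *Csf1r*, 3 C1q and 1 Cd3 UMI allowed, 459 of 7163 UT barcodes (6.41%) and 389 of 6776 BUP barcodes (5.74%) were kept as neutrophils, the opposite direction, while over barcodes with a *Ptprc* UMI the difference was 1.56 points. Against the sum of neutrophils and barcodes with a *Csf1r* UMI, the shares were 7.07% of 3847 and 11.0% of 2437. The mix of CD45+ and CD45- cells at loading sets the share of all barcodes, and the number of *Csf1r* cells differed between the libraries, so more neutrophils cannot be told apart from fewer of the other cells.

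Across the transcriptome the UT and BUP neutrophils were close. Of the 1557 genes that reached 100 UMIs in the libraries combined, 53 (3.4%) were 1.5-fold or more higher in the BUP library and 60 (3.85%) were 1.5-fold or more lower. Some of these differences came from few cells. Without the 5 cells with most UMIs of the gene in each library, 40 of the 53 and 53 of the 60 stayed past 1.5-fold, and of these 11 higher and 19 lower genes were detected in 20% or more of the neutrophils of both libraries. Under the alternatives given at the end, the counts ran from 12 to 89 higher and from 9 to 139 lower genes. A sum of UMIs cannot tell more cells with a transcript from more transcript per cell, so shares of cells are given beside the levels below.

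The clearest gene on the higher side was *Wfdc17*, which encodes a small secreted protein with a whey acidic protein domain, also called activated macrophage and microglia WAP domain protein (ENSMUSG00000069792, chr11:83594817-83597095 on GRCm39). It was at 1317 CPM (1223 to 1416) in UT and 3032 CPM (2903 to 3164) in BUP neutrophils, with a log2 ratio of 1.20 (1.08 to 1.33), and the intervals of the libraries did not overlap. More cells carried it, 47.2% of thinned UT and 71.6% of thinned BUP neutrophils against 4.17% and 2.67% of T cells. In *Csf1r* cells the gene stood at 468 and 441 CPM, so the libraries did not differ there in the same direction. Its neighbor in name, *Wfdc21*, was at 312 (267 to 362) and 523 (471 to 580) CPM, with a log2 ratio of 0.75 (0.48 to 1.02), with 24.9% and 34.7% of thinned neutrophils positive.

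*Fas*, *Tlr2* and *Zfp36l1* were also among the 11 broadly detected higher genes. *Fas*, the death receptor, was at 126 and 223 CPM, with a log2 ratio of 0.82 (0.40 to 1.25), and was detected in 13.5% and 20.3% of thinned neutrophils, but its ratio was below 1.5-fold without any C1q UMI (0.53) and after thinning (0.49). Unthinned shares of *Fas* were 21.0% and 39.2%. *Tlr2*, a receptor for bacterial lipoproteins, was at 146 and 243 CPM, with a log2 ratio of 0.73 (0.34 to 1.14), and was detected in 10.0% and 22.0%. *Zfp36l1*, which encodes an RNA-binding protein that speeds mRNA decay, was at 164 and 368 CPM, with a log2 ratio of 1.17 (0.82 to 1.53). Its thinned shares of 10.9% and 25% lay below and above the 21.9% and 17.0% of T cells. *Ifitm1* (1304 and 2355 CPM, log2 ratio 0.85) and *Upp1*, the uridine phosphorylase (450 and 769 CPM, log2 ratio 0.77), belonged to no list and were picked after their values were seen. After thinning the *Ifitm1* ratio was 0.52, below 1.5-fold.

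Of the CXCR2 ligands, *Cxcl3* was higher in the BUP library and *Cxcl2* nearly level. *Cxcl3* (ENSMUSG00000029379, chr5:90933962-90937459 on GRCm39) was at 1704 CPM (1598 to 1817) in UT and 2715 CPM (2594 to 2841) in BUP neutrophils, with a log2 ratio of 0.67 (0.56 to 0.79), in 26.6% and 37.3% of thinned cells. With up to 1 *Csf1r*, 3 C1q and 1 Cd3 UMI allowed, its ratio was 0.37, below 1.5-fold. *Csf1r* cells showed a log2 ratio of 0.62 for the same gene, the same direction. *Cxcl2* was at 19678 and 23006 CPM, with a log2 ratio of 0.23 (0.19 to 0.26), and was detected in 93.4% and 96.2% of thinned neutrophils. *Cxcl1* was at 148 and 137 CPM, and *Cxcl5* had no UMI.

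The 9 measured chemokine ligands split between both directions. *Ccl3* and *Ccl4*, which attract monocytes and T cells, were at 3400 and 2970 CPM and at 2820 and 2633 CPM, and *Ccl6* was at 2447 and 2298 CPM. *Ccl2* was at 303 and 116 CPM, with a log2 ratio of -1.39 (-1.79 to -1.0), and *Cxcl10*, an interferon-induced ligand, at 231 and 143 CPM, with a log2 ratio of -0.69. Neither call held under every choice of barcodes, since *Ccl2* had a ratio of -0.51 at a threshold of 100 per 10000 and *Cxcl10* one of -0.017 with mitochondrial transcripts under 10%. The list held 1 gene 1.5-fold or more higher and 2 lower, with a median of -0.10, against 4.7% higher and 7.19% lower and a median of -0.03 among all 2657 genes with at least 50 UMIs, and the sign of the median changed with the choice of barcodes (0.07 without any C1q UMI). *Ccl7* was at 162 and 30.3 CPM, with a log2 ratio of -2.42 that was -1.11 at a threshold of 100 per 10000. *Ccl2* and *Ccl7* are abundant macrophage transcripts, detected in 65.0% and 59.6% and in 44.0% and 35.3% of thinned *Csf1r* cells. They were lower in the BUP library also in T cells, where *Ccl2* had a log2 ratio of -0.81 and *Ccl7* of -1.12, and the 6 macrophage markers outside the rule summed to 474 and 321 CPM in neutrophils. The part of macrophage RNA in the difference was not tested.

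The promoters of *Cxcl2* and *Cxcl3* are shown because these ligands carry the same motif near the start of transcription. Windows from 250 bases before to 50 bases after the start were read from RefSeq promoters on GRCm38.p6, 5′ to 3′ on the strand of the gene, and capitals mark GGGANNTTCC, a motif of NF-κB searched on both strands.
Cxcl2, chr5:90903649-90903948, plus strand: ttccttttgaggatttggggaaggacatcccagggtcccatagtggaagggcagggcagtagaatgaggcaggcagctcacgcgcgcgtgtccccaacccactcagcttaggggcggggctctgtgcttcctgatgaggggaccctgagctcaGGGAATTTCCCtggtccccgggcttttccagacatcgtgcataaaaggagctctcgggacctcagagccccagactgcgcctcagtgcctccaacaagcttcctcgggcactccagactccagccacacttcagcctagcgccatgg
Cxcl3, chr5:90785851-90786150, plus strand: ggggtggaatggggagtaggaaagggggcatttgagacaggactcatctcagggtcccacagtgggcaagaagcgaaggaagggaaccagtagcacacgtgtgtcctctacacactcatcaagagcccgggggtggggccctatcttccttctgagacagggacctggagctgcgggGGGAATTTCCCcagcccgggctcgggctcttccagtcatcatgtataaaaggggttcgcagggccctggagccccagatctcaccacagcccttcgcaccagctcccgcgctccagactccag
Each window held GGGAATTTCC, beginning 97 bases before the start in *Cxcl2* and 73 bases before it in *Cxcl3*, and the overlapping match on the other strand. The motif was present in 4 of the 8 chemokine ligand genes with a window (50%) and in 1.63% of all 27025 genes. This form was searched after both windows had been seen, and the shorter GGGANTTCC, searched at the outset, was in 2 of the 8 (25%) and in 1.92% of all genes. A match is a description of the sequence and not a site of binding.

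Of the cytokine genes, *Il1b* and *Osm* were lower in the BUP library. *Il1b*, which encodes IL-1β (ENSMUSG00000027398, chr2:129206490-129213059 on GRCm39), was at 13887 CPM (13579 to 14201) in UT and 10222 CPM (9986 to 10464) in BUP neutrophils, with a log2 ratio of -0.44 (-0.49 to -0.40), a difference below 1.5-fold. It was detected in 98.3% and 97.9% of thinned neutrophils, so nearly every cell carried it in both libraries, and in 9.85% and 4.18% of thinned T cells. *Csf1r* cells had a log2 ratio of 0.37 for *Il1b*, the opposite direction. The other 8 measured genes of the interleukin-1 family and inflammasome list were within 1.5-fold, as were 2341 of all 2657 genes with at least 50 UMIs, among them *Nlrp3* (1058 and 1178 CPM), the receptor antagonist *Il1rn* (805 and 848 CPM) and *Casp4* (164 and 228 CPM).

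*Osm*, which encodes oncostatin M, a cytokine of the IL-6 family (ENSMUSG00000058755, chr11:4186420-4191026 on GRCm39), differed most among the inflammatory mediators. It was at 1582 CPM (1479 to 1690) in UT and 881 CPM (813 to 954) in BUP neutrophils, with a log2 ratio of -0.84 (-1.0 to -0.69). Thinned shares were 56.3% and 40.7%, against 3.17% and 1.16% of T cells, and unthinned shares lay closer together at 62.9% and 57.1%. In *Csf1r* cells the log2 ratio of *Osm* was 0.24, and in T cells, at 34.5 and 19.4 CPM, it was -0.83. *Ptgs2*, the inducible cyclooxygenase, was at 1335 and 1019 CPM, *Tnf* at 241 (202 to 286) and 269 (232 to 310.3) CPM, and *Nfkbia*, the inhibitor induced by NF-κB, at 6216 and 7631 CPM. Of 8 measured mediators, 1 was 1.5-fold or more lower and none higher, beside 7.19% lower and 4.7% higher among all genes with at least 50 UMIs, while *Il6* and *Il12b* had no UMI.

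Immediate early genes, transcription factors and regulators that are induced within minutes of a stimulus, had a median ratio below that of all genes, with no member past 1.5-fold. Of 14 measured genes 11 had a log2 ratio below 0, and the median was -0.40, against 1438 of 2657 below 0, 7.19% lower by 1.5-fold or more and a median of -0.03 over all genes with at least 50 UMIs. *Zfp36*, which encodes tristetraprolin, was at 7720 and 5227 CPM, *Junb* at 7663 and 5588 CPM, *Dusp1* at 6010 and 4464 CPM, *Egr1* at 3823 and 2861 CPM and *Fos* at 3775 and 2595 CPM. The lowest ratio was that of *Zfp36*, at -0.56 (-0.63 to -0.50). *Atf3*, at 847 and 861 CPM, and the heat shock genes *Dnajb1* (157 and 176 CPM) and *Hsp90aa1* (312 and 364 CPM) did not share this direction. The same 14 genes had a median of -0.06 in *Csf1r* cells and of -0.06 in T cells, where all 2657 genes had medians of -0.01 and -0.07. The mitochondrial share of UMIs had a median of 1.45% in UT and 0.901% in BUP neutrophils, and its part in this difference was not tested.

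**Figure D3:**
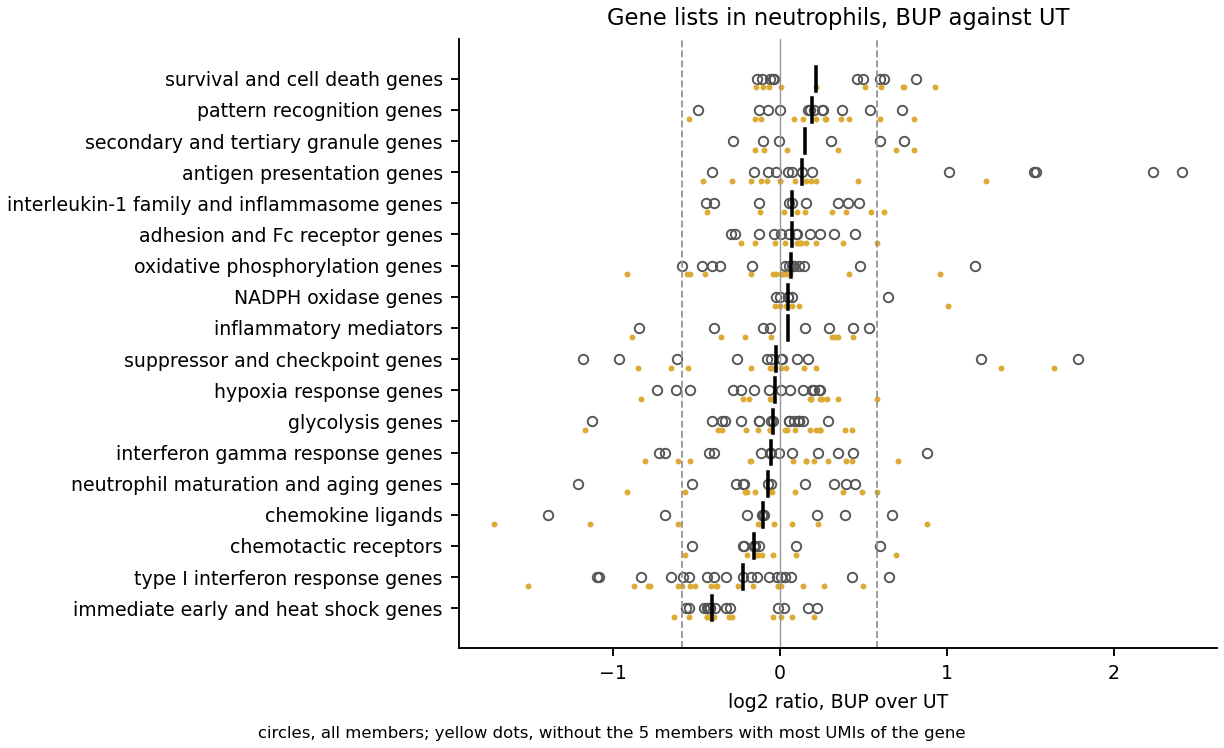
Log2 ratios of BUP over UT in neutrophils (horizontal axis) for the measured genes of 18 lists (vertical axis), as circles, with the list median as a bar, the same ratios without the 5 cells with most UMIs of the gene as yellow dots, and 1.5-fold dashed. The immediate early list has the lowest median, -0.40, and the yellow dots of the 5 highest antigen presentation genes lie between -0.28 and 0.09.

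Type I interferon response genes had a median of -0.22 in neutrophils. Of 28 type I interferon response genes, which are induced by interferon alpha and beta, 19 were measured, 14 of them had a log2 ratio below 0, and 4 were 1.5-fold or more lower and 1 higher, *Bst2*, whose log2 ratio of 0.66 was -0.77 without the 5 cells with most of it. Among all 2657 genes with at least 50 UMIs, 1438 were below 0, 7.19% were 1.5-fold or more lower and 4.7% higher. The list median was -0.36 in *Csf1r* cells and -0.47 in T cells, with 18 of the 19 ratios below 0 in each, against 1394 and 1701 of the same 2657 genes. Other lists were also mostly below 0 there, such as the glycolysis genes with 15 of 17 in *Csf1r* cells and 16 of 17 in T cells. The neutrophil median was -0.048 at a threshold of 400 per 10000. *Rsad2*, which encodes the antiviral protein viperin, was at 777 CPM (705 to 853) in UT and 364 CPM (321 to 412) in BUP neutrophils, with a log2 ratio of -1.09 (-1.32 to -0.86). In the UT library 5 cells held 48.5% of its UMIs, and the shares of cells were 20.1% and 12.7% after thinning and nearly level at 23.5% and 21.6% before it. *Ifit1* was at 150 and 70.8 CPM, whereas *Isg15*, the ubiquitin-like modifier, was at 1598 (1495 to 1707) and 1529 (1438 to 1624) CPM, intervals that overlap. *Slfn4*, a schlafen gene of myeloid cells, was at 879 and 900 CPM. The 13 measured interferon gamma response genes had a median of -0.05, with 1 gene 1.5-fold or more higher, *Irf8*, and 2 lower. The *Irf8* log2 ratio of 0.88 was -0.12 at a threshold of 400 per 10000, where the list median was 0.29.

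The promoters of *Rsad2*, *Ifit1* and *Isg15* are printed as examples of interferon response genes that differed and that did not. They come from the same RefSeq windows on GRCm38.p6, and capitals mark GAAANNGAA, the core of the interferon-stimulated response element, on either strand.
Rsad2, chr12:26456403-26456702, minus strand: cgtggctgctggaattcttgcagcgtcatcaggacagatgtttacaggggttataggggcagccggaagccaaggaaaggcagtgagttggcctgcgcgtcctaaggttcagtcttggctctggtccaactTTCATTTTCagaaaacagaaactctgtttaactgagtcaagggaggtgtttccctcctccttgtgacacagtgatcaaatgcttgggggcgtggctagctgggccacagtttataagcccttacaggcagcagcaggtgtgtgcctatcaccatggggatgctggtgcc
Ifit1, chr19:34640639-34640938, plus strand: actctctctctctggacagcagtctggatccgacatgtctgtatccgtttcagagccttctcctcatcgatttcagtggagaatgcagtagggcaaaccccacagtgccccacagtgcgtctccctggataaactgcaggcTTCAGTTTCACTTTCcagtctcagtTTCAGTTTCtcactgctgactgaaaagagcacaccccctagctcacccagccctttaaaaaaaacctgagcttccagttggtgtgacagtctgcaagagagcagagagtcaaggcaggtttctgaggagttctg
Isg15, chr4:156200769-156201068, minus strand: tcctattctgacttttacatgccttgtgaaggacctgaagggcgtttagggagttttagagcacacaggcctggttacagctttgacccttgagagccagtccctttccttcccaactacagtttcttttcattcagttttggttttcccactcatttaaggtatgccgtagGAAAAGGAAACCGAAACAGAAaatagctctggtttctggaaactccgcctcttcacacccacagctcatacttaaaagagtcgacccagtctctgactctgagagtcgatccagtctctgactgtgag
*Rsad2* held 1 match and *Ifit1* and *Isg15* held 3 each, partly overlapping, so the motif was present in the lower genes and in *Isg15* alike. It occurred in 13 of the 22 type I interferon response genes with a window (59.1%), in 9 of 15 interferon gamma response genes (60%) and in 9.76% of all 27025 genes.

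Antigen presentation held the highest ratios among genes with at least 100 UMIs, and these came from a handful of cells. Of 13 measured genes of the list 5 were 1.5-fold or more higher and none lower, beside 4.7% higher and 7.19% lower among all genes with at least 50 UMIs, and the median was 0.14 beside -0.03. The list median was -0.038 without the 5% deepest cells, 0.39 at a threshold of 400 per 10000 and 0.34 without any C1q UMI. *H2-Aa*, a chain of the MHC class II molecule that presents antigen to CD4 T cells, was at 88.3 CPM (65.3 to 117) in UT and 470 CPM (420 to 524) in BUP neutrophils, with a log2 ratio of 2.41 (1.97 to 2.88). *H2-Ab1* (73.9 and 348 CPM), *H2-Ea* (41.4 and 207 CPM), *H2-Eb1* (93.7 and 272 CPM) and the invariant chain *Cd74* (310 and 889 CPM) followed. A UMI of these 5 genes was found in 147 UT and 111 BUP neutrophils, so fewer BUP cells had one. In the BUP library 5 cells held 1275 of 1512 such UMIs (84.3%), whereas in the UT library 5 cells held 90 of 337 (26.7%). Without the 5 cells with most UMIs of each gene, the log2 ratio of *H2-Aa* was 0.09, that of *H2-Ab1* -0.17, that of *H2-Ea* -0.18 and that of *Cd74* -0.28.

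The 5 BUP cells were deeper than most neutrophils, whose upper quartile was 2919 UMIs in that library, and they differed among themselves. They held 760, 229, 129, 101 and 56 UMIs of MHC class II genes at depths of 10408, 6898, 8936, 9944 and 4782 UMIs. In 2 of them *Siglech*, a receptor of plasmacytoid dendritic cells, had 11 and 17 UMIs, beside 29 and 28 UMIs of *Bst2* and 21 and 13 UMIs of *Irf8*. These 2 cells had 0 and 1 UMIs of *Retnlg* and 1 and 2 of *Csf3r*. The cell with 229 MHC class II UMIs had 1 of *Retnlg* and 2 of *Csf3r*. The cell with 760 MHC class II UMIs had 35 UMIs of *Retnlg* and no UMI of *Csf3r*, and the cell with 56 had 75 of *Retnlg* and 9 of *Csf3r*. *Gzma*, a granzyme of NK and T cells, was likewise at 48.6 and 133 CPM over all neutrophils, with a log2 ratio of -1.64 without the 5 cells with most of it. The class I genes were level, with *H2-D1* at 2492 and 2370 CPM, *H2-K1* at 1531 and 1509 CPM and *B2m* at 1557 and 1397 CPM.

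**Figure D4:**
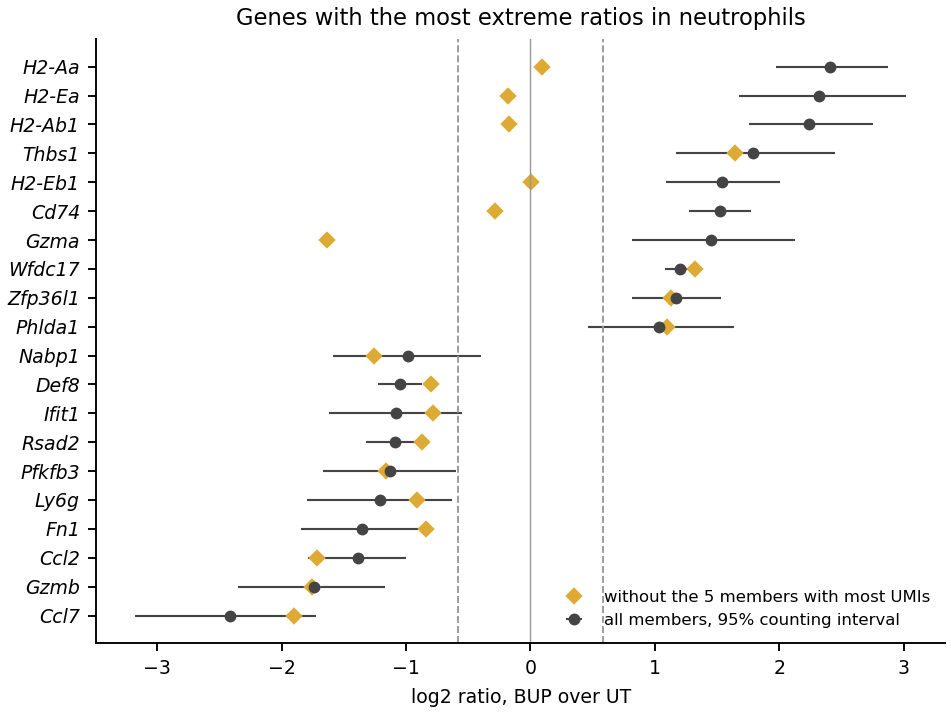
Log2 ratio of BUP over UT (horizontal axis) in neutrophils for the 10 genes with the highest and the 10 with the lowest ratio among genes with at least 100 UMIs (vertical axis), with exact 95% intervals as bars, 1.5-fold dashed, and yellow diamonds for the ratio without the 5 cells with most UMIs. The diamonds of the MHC class II genes and of *Cd74* lie between -0.28 and 0.09, that of *Gzma* at -1.64, and that of *Wfdc17* at 1.32.

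Suppressor and checkpoint genes, by which myeloid cells restrain T cells, showed no common direction. The 12 measured genes had a median of -0.02, with 2 of them 1.5-fold or more higher (*Wfdc17* and *Thbs1*) and 3 lower, *Spp1* and *Cd84* among them, beside 4.7% higher and 7.19% lower among all genes with at least 50 UMIs. *Cd274*, which encodes PD-L1, was at 625 (561 to 695) and 594 (538 to 654) CPM and *Entpd1*, the ectonucleotidase CD39, at 692 and 666 CPM, each within overlapping intervals. *Cd84*, a receptor of the SLAM family, was at 499 and 327 CPM, with a log2 ratio of -0.61 (-0.87 to -0.35), and was detected in 36.2% and 28.0% of thinned neutrophils (unthinned 49.6% and 45.1%). Its ratio fell short of 1.5-fold under several alternatives, at -0.51 with a threshold of 100 per 10000 and at -0.46 without the 5% deepest cells. *Spp1*, osteopontin, was at 685 and 351 CPM, but its thinned shares of 33.6% and 22.0% lay below the 52.1% and 54.4% of T cells, so they are not read as expression. The *Spp1* ratio of -0.96 was -0.47 with up to 1 *Csf1r* UMI allowed and -0.55 without any C1q UMI, both below 1.5-fold. *Thbs1*, thrombospondin, was at 48.6 and 168 CPM in 3.06% and 5.51% of thinned cells, with a log2 ratio of 1.78 that was 0.68 at a threshold of 400 per 10000 and 3.03 at one of 100.

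The 10 lowest ratios held a neutrophil marker gene and transcripts that other cells carry as well. *Ly6g* (ENSMUSG00000022582, chr15:75027089-75030982 on GRCm39) was at 133 CPM (105 to 167) in UT and 57.8 CPM (41.3 to 78.7) in BUP neutrophils, with a log2 ratio of -1.21 (-1.80 to -0.63), and was the 1 of 12 neutrophil marker genes past 1.5-fold, beside the 7.19% lower among all genes with at least 50 UMIs. It was found in 30 UT and 28 BUP cells, so the level differed and the number of positive cells hardly did, and 5 UT cells held 43.2% of its UMIs. *Def8*, which encodes a protein of lysosome positioning, was at 1256 and 608 CPM, with a log2 ratio of -1.05 (-1.22 to -0.87). In the UT library 1 cell held 135 of its 697 UMIs. The *Def8* ratio was -0.80 without the 5 cells with most of it and -0.77 without any C1q UMI. *Def8* was detected in 55.0% and 39.0% of thinned neutrophils (unthinned 72.1% and 61.6%) against 36.9% and 24.7% of T cells. Its level went the other way in T cells, at 798 and 1255 CPM (log2 ratio 0.65), and in *Csf1r* cells (log2 ratio 0.21). *Fn1*, fibronectin, was at 207 and 80.9 CPM, and *Gzmb*, a granzyme detected in 49.4% and 50.4% of thinned T cells, at 169 and 50.6 CPM in 3.93% and 1.27% of thinned neutrophils. The *Gzmb* ratio of -1.74 was -0.48 at a threshold of 400 per 10000 and -0.54 without any C1q UMI. The *Fn1* ratio of -1.36 was -0.60 and -0.84 in these settings. *Nabp1*, which encodes a single-stranded DNA binding protein, was at 117 and 59.2 CPM. On the higher side, *Phlda1* was at 64.9 and 133 CPM, in 29 UT and 53 BUP cells.

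Genes by which neutrophils sense microbes differed by small amounts. Of 12 measured pattern recognition genes 9 had a log2 ratio above 0, *Tlr2* alone was 1.5-fold or more higher, none was lower by that much, and the median was 0.19. Among all 2657 genes with at least 50 UMIs, 1219 were above 0 and 4.7% were higher by 1.5-fold or more. *Cd14*, the co-receptor for lipopolysaccharide, was at 2912 and 3480 CPM, *Clec4e*, the lectin receptor Mincle, at 1758 and 1978 CPM, and the adaptor *Myd88* at 124 and 181 CPM. *Clec7a*, the receptor Dectin-1 for fungal glucans, went the other way at 1299 and 1192 CPM. The same 12 genes had a median of 0.15 in *Csf1r* cells and of -0.66 in T cells.

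Receptors and effector genes of neutrophils were mostly within 1.5-fold, as were 2341 of all 2657 genes with at least 50 UMIs. All 9 measured chemotactic receptors but *Ltb4r1*, the leukotriene B4 receptor (82.9 and 126 CPM), were within 1.5-fold, with *Ccrl2* at 4924 and 4445 CPM, the chemokine receptor *Ccr1* at 1086 and 975 CPM and the complement receptor *C5ar1* at 1067 and 960 CPM. Of the 6 NADPH oxidase genes, *Ncf1*, *Ncf4*, *Cyba* and *Rac2* had log2 ratios of at most 0.08 in size. The membrane subunit *Cybb* was at 84.7 and 133 CPM and was detected in 3.93% and 4.66% of thinned neutrophils, against 38.4% and 36.4% of thinned *Csf1r* cells. Its log2 ratio of 0.65 was 0.25 at a threshold of 100 per 10000 and 0.060 at one of 400. The 12 adhesion and Fc receptor genes were all within 1.5-fold, with *Fcer1g*, the shared Fc receptor chain, at 2566 and 3035 CPM. The survival gene *Mcl1*, on which neutrophils depend, was at 4056 and 3905 CPM, and of 10 survival and cell death genes 3 were higher by 1.5-fold or more, namely *Fas*, *Bcl10* (101 and 153 CPM) and *Bcl2a1b* (115 and 178 CPM), whose near-identical copies make its own level uncertain. The survival list had a median of 0.21, with 5 ratios above 0 and 5 below, beside -0.03 for all genes with at least 50 UMIs. The list median was 0.53 without any C1q UMI, and 4.7% of all those genes were higher by 1.5-fold or more.

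Metabolic lists had medians near 0 as well. The 17 glycolysis genes had a median of -0.04, and the 14 hypoxia response genes had one of -0.03. Of the glycolysis genes 1 was 1.5-fold or more lower, and of the hypoxia genes 2, with none higher in either list. Among all genes with at least 50 UMIs 7.19% were lower and 4.7% higher. *Pfkfb3*, whose enzyme makes the activator of phosphofructokinase, was at 151 (121 to 187) and 69.4 (51.1 to 92.0) CPM, while *Aldoa* (1041 and 1123 CPM) and *Ldha* (748 and 809 CPM) were level. *Slc2a3*, a glucose transporter gene, was at 350 and 264 CPM in neutrophils and was detected in 0.784% and 0.649% of thinned *Csf1r* cells against 21.8% and 17.8% of neutrophils. *Hif1a*, the oxygen-regulated transcription factor, was at 380 and 439 CPM. The 14 oxidative phosphorylation genes had a median of 0.07, which was -0.14 when mitochondrial transcripts were limited to 10%. Of these genes 1 was 1.5-fold or more higher and 1 lower.

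Transcripts of acetylcholine receptors and of voltage-gated sodium channels, the target of bupivacaine, were scarce. Of 22 genes for acetylcholine receptors and enzymes, 17 had no UMI in any neutrophil, among them *Chrna7*, and a count of 0 allows up to 3 UMIs by a one-sided limit, or 5.41 CPM in UT and 4.34 CPM in BUP neutrophils. *Chrm3*, the muscarinic M3 receptor (ENSMUSG00000046159, chr13:9925522-10410883 on GRCm39), had 9 UMIs in 9 UT cells and 16 UMIs in 13 BUP cells, or 16.2 (7.41 to 30.8) and 23.1 (13.2 to 37.5) CPM. That was 6.84-fold and 12.9-fold above the *Csf1r* cells, while T cells had 1 and 3 UMIs in all. *Chrna9* had 6 and 7 UMIs, or 10.8 and 10.1 CPM. The log2 ratio of *Chrm3* was 0.51 (-0.75 to 1.87), so a difference between the libraries was not detectable at this depth. Of 13 sodium channel genes 11 had no UMI, and the 4 UMIs of *Scn3a* came from 1 BUP cell.

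Among themselves the neutrophils were compared by whether a thinned cell had a UMI of *Retnlg*, which 127 of 229 UT cells (55.5%) and 142 of 236 BUP cells (60.2%) had. This gives the same comparison in each library, with cells and not tumors as the units. Of 1192 genes, 59 (4.95%) were 1.5-fold or more higher in the cells with *Retnlg* in both libraries and 49 (4.11%) were lower in both. *Mmp8* was at 331 CPM with and 29.4 CPM without *Retnlg* in the UT library, from 42 and 3 UMIs, and at 268 and 42.6 CPM in the BUP library, from 38 and 4 UMIs. *Wfdc21* was at 496 and 167 CPM in the UT library and at 704 and 383 CPM in the BUP library. *Pglyrp1*, a bactericidal protein of granules chosen after its values were seen, was at 1260 and 539 CPM in UT and 1451 and 713 CPM in BUP cells.

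Among the lists, 3 of 7 chemokine ligands and 3 of 11 pattern recognition genes were lower with *Retnlg* in both libraries, and 1 of 8 type I interferon response genes, beside the 4.11% of all genes. *Ccl3* was at 2071 CPM with and 4853 CPM without *Retnlg* in the UT library, and at 1951 and 4617 CPM in the BUP library, log2 ratios of -1.23 (-1.45 to -1.01) and -1.24 (-1.47 to -1.02). *Ccl4* had log2 ratios of -1.14 and -0.95, *Il1rn* of -1.10 and -1.01, *Cd274* of -1.51 and -0.80, *Tnf* of -1.14 and -0.96, and *Cxcl3* of -0.60 and -0.99. *Rsad2* had ratios of -1.64 and -1.62 and *Gbp2*, an interferon-induced GTPase, of -1.60 and -1.54, so both genes were higher in the cells without *Retnlg* in both libraries. *Csf3r* and *Cxcr2* were within 1.5-fold in both libraries, with log2 ratios of 0.18 to 0.26, and *Wfdc17* had 0.27 and 0.34. *Lcn2* was not alike in the libraries, at -0.04 in UT and 1.00 in BUP cells.

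Depth and the rule's own genes moved with this split. Cells with *Retnlg* had medians of 2097 UT and 2463 BUP UMIs before thinning and cells without it 1820 and 1943.5, and the medians of *S100a8* plus *S100a9* were 850 against 460 per 10000 in the UT library and 1085 against 710 in the BUP library. Their part in the split was not tested. A split by *Siglecf*, a gene of a tumor neutrophil state described in other models, could not be made, since 1 of 229 UT and 0 of 236 BUP cells had a UMI of it.

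**Figure D5:**
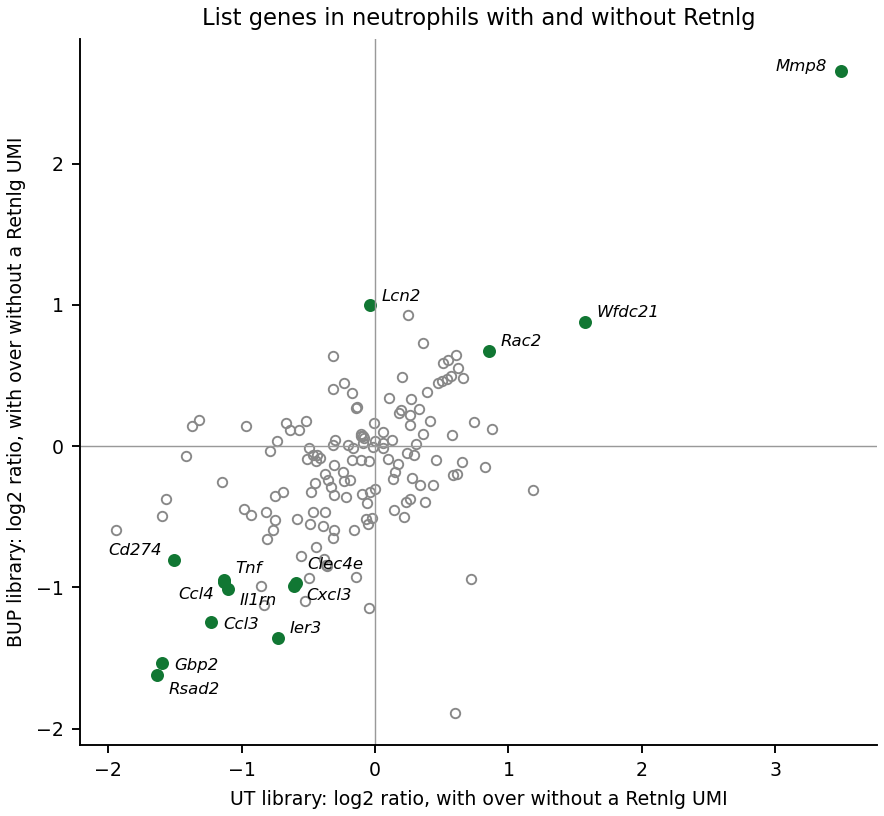
Log2 ratio of thinned neutrophils with over without a *Retnlg* UMI, in the UT library (horizontal axis) against the BUP library (vertical axis), for genes of the lists as open circles and named genes filled in green. *Mmp8* stands at 3.49 and 2.65, *Rsad2* at -1.64 and -1.62, and *Lcn2* at -0.04 and 1.00.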

How the data were processed

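Single cells of untreated (UT) and BUP-treated CT26 tumors were measured in 1 droplet library each. The authors deposited raw UMI counts per gene and barcode for 33696 genes, and the submitters' processing notes name Cell Ranger 8.0.1, Seurat 5.0.1 and the mouse build GRCm39. No barcode was added or removed beyond the rule given in the report. Counts of the neutrophils were summed per library and divided by their total, and genes that reached 100 UMIs in the libraries combined (list genes, 50) were compared by log2 ratio, with 1.5-fold as the size named. Intervals are exact Poisson, Clopper-Pearson or conditional binomial at 95%, and the scripts were tested on simulated data. With 1 library per condition no test was run. For shares of cells with a UMI, every cell was thinned to 1000 UMIs with a fixed seed. Genes were named if in 1 of 33 lists with at least 50 UMIs, if among the 10 highest or 10 lowest ratios, or if they were acetylcholine receptors or sodium channels. *Ifitm1*, *Upp1*, *Pglyrp1* and *Siglech*, outside this rule, were chosen after their values were seen. List genes named as having no UMI, and *Siglecf*, named for the split that could not be made, also fall outside the rule. The members and lists were chosen with earlier results of these data known. Alternatives varied each part of the rule, the scaling, the weighting of cells and the minimum of UMIs. Gene positions come from the GENCODE annotation of GRCm39, and promoter windows of 27025 genes from RefSeq on GRCm38.p6. A few list genes are not reported here by name. The software was Python 3.11.15, pandas 2.3.3, scipy 1.17.1, matplotlib 3.10.9 and numpy 2.4.6.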

Additional observations from a re-analysis of the deposited data

Results flagged for a closer look

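Barcodes left out for a mitochondrial share of 20% or more held a few cells of the same kind. Of the 393 UT and 445 BUP barcodes left out for it, 8 passed every other part of the rule for neutrophils, 4 in each library. They entered no comparison. The UT library, from untreated tumors, was the only control and held 4 of them.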

How the results depend on the processing

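No paired analysis was possible because each condition has 1 library, and for the same reason no replicate could be left out. Of 598 ratios of named genes under the alternatives, 459 moved by less than their counting interval, 120 moved by more and 19 changed direction, and of 234 list medians 227 moved by less and 7 by more. *Wfdc17* kept log2 ratios of 1.07 to 1.46, *Osm* of -1.0 to -0.66, *Il1b* of -0.54 to -0.35 and *Cxcl3* of 0.37 to 0.89. The share difference of 1.60 percentage points was 0.158 over all barcodes kept and 3.93 over neutrophils plus barcodes with a *Csf1r* UMI. The 53 higher genes were 32 without the 5% of cells with most UMIs, 89 after thinning and 12 with at least 300 UMIs per gene. The 60 lower genes were 34 without any C1q UMI, 139 after thinning, 115 with equal weight per cell and 9 with at least 300 UMIs. Fewer genes were tested at 300 UMIs, and fewer UMIs were left after thinning. The chemokine ligand median was 0.074 without any C1q UMI, 0.033 without the 5% deepest cells and 0.025 with up to 1 *Csf1r*, 3 C1q and 1 Cd3 UMI allowed. This last setting, chosen after seeing the data, gave -0.19 for oxidative phosphorylation and -0.26 for immediate early genes. Oxidative phosphorylation also had -0.14 with mitochondrial transcripts under 10% and -0.20 with equal weight per cell.

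Directions of single genes turned as follows, and the cause was not tested. At a threshold of 400 per 10000, *Gzma* was at -2.50, *Bst2* at -0.048 and *Irf8* at -0.12. Without the 5% deepest cells, *H2-Aa* was at -0.015, *H2-Ea* at -0.15, *H2-Ab1* at -0.046, *H2-Eb1* at -0.61, *Cd74* at -0.35, *Gzma* at -2.00 and *Bst2* at -0.13. Thinning gave -0.18 for *Gzma* and -0.21 for *Bst2*, and equal weight gave -0.18 for *Bst2* and -0.13 for *Irf8*. Without the 5 cells with most UMIs of the gene, a setting also chosen after seeing the data, *H2-Ea* was at -0.18, *H2-Ab1* at -0.17, *Cd74* at -0.28, *Gzma* at -1.64 and *Bst2* at -0.77. A median of 1794 to 2030 UMIs per cell limits the shares of cells positive for low genes.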
